A study of Bos indicus x Bos taurus with 17 samples.

Results

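The cytochrome P450 genes were described in fetal liver and skeletal muscle of cattle. The set holds every gene row whose name reads CYP, a number, a letter and a number, which gave 41 rows of the 21048 in each count table and 39 different symbols, because CYP4F2 and CYP3A5 are each listed under 2 gene identifiers. Related genes with other names, such as CYP21, TBXAS1 and PTGIS, fall outside this rule. The fetuses were Nelore × Holstein F1 hybrids (Bos indicus × Bos taurus) at about day 105 of gestation. The 4 ART-Normal fetuses were produced in vitro by assisted reproductive technology (ART) and were classed as normal for a weight like that of the controls (the weight of ART-Normal 4 was not checked here), and the 2 Control-AI fetuses were conceived by artificial insemination (AI). Each fetus gave 1 liver and 1 muscle library, so the 12 libraries come from 6 animals. The control group of 2 animals and the use of whole tissue limit what can be compared, and in whole tissue fewer cells of a type and less RNA per cell cannot be told apart.

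Cytochromes P450 are heme enzymes that insert 1 oxygen atom of O2 into small lipophilic molecules. Those in the endoplasmic reticulum draw electrons from the reductase POR, and those in mitochondria draw them from ferredoxin. The liver is their best known site: enzymes of the lower families clear drugs and toxins, family 4 hydroxylates fatty acids, and others carry out steps in the making of cholesterol, bile acids, steroid hormones and active vitamin D, or degrade retinoic acid. In fetal liver, which is also a site of blood cell formation, several of the drug-metabolising enzymes are known to be low until birth.

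Total counts ran from 12433300 to 43339598 per library, and levels are given as counts scaled to a common library size (CPM) after normalization by the trimmed mean of M values (TMM). The liver libraries held 27462 to 192252 CPM of the summed hepatocyte markers and the muscle libraries 23.3 to 221 CPM, while the skeletal muscle markers summed to 6.82 to 31.9 CPM in liver and 13570 to 22717 CPM in muscle, so both tissue labels matched their markers. The upper ends of both other-tissue sums were those of Control-AI 2: its muscle library held 221 CPM of hepatocyte markers, with at most 46.6 CPM in the other 5, and its liver library held 31.9 CPM of muscle markers, with at most 9.55 CPM in the other 5. Control-AI 2 stood apart from the other 5 fetuses in both tissues, at -43.1 on the first principal component in liver and -42.2 in muscle against 2.04 or more in all others. Its liver library had the highest hepatocyte marker sum, 192252 CPM, with 27462 to 49892 CPM in the other 5. Most of that sum came from ALB, SERPINA1 and AFP, at 74969, 59087 and 41382 CPM. FGB was also the highest of the 6 livers, while APOB, APOA1 and TTR lay within the range of the other 5. The tests between conception groups lean on this animal as 1 of 2 controls, so values are shown by library. A difference is called past the threshold where the Benjamini-Hochberg adjusted p of edgeR's quasi-likelihood test over all genes is at most 0.05.

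Of the 41 P450 genes, 20 had a mean under 1 CPM in both tissues and 21 reached 1 CPM in at least 1 of them. The filter of at least 5 CPM in every library of a group was passed by 12 of 41 in liver and 9 in muscle, of which 8 passed in both, and 28 passed in neither. In liver, 25 of the 41 had a mean under 1 CPM and 3 had no read in any library (CYP2E1, CYP11B1 and CYP17A1). In muscle, 27 had a mean under 1 CPM and 7 had no read (CYP1A2, CYP2E1, CYP4A22, the CYP4F2 gene 507016, CYP11B1, CYP19A1 and CYP24A1). A total of 3 reads over the 6 libraries equals 0.019 CPM in liver and 0.0241 CPM in muscle, which is the level that a count of 0 allows, for counting error only. CYP2E1, the ethanol and acetaminophen oxidase, is a special case among them, since its whole span lies inside TCERG1L on the same strand of chromosome 26, and how reads shared by both genes were counted is not stated. Its count of 0 therefore gives no upper limit for the gene.

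**Figure D1:**
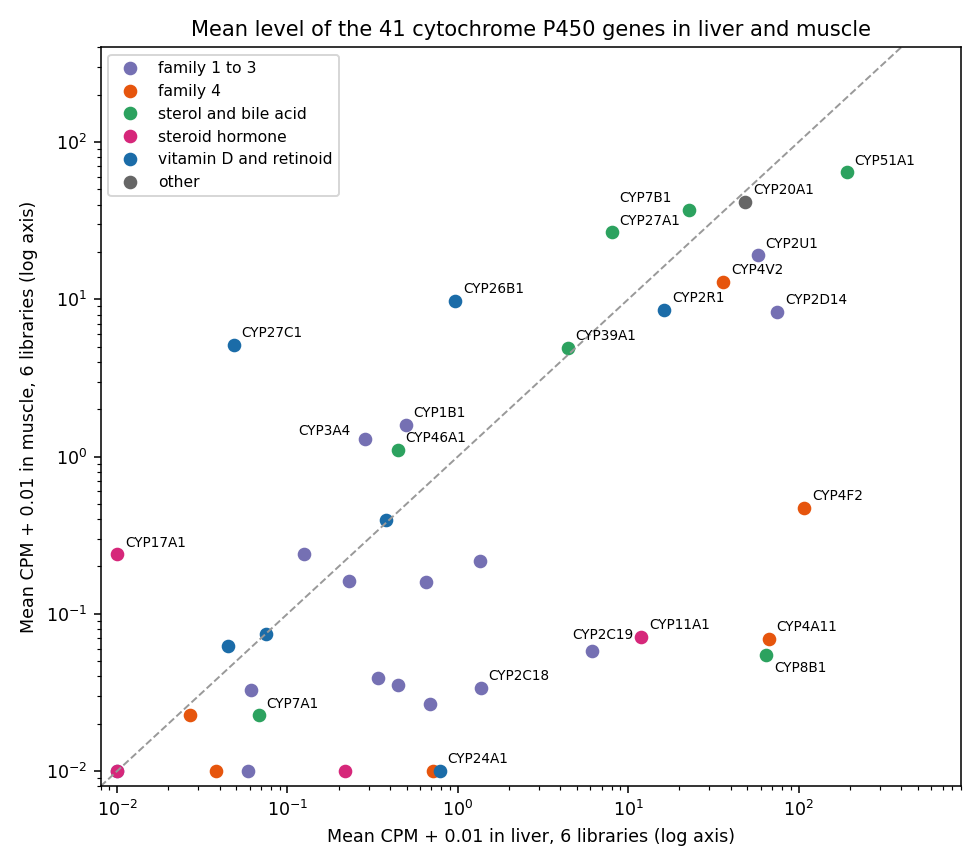
Mean level of each of the 41 cytochrome P450 genes in liver (x axis) and muscle (y axis), in CPM plus 0.01 over 6 libraries, on log axes, coloured by role, with a dashed line of equal level. CYP8B1, CYP4A11, CYP4F2 and CYP11A1 sit far to the right of the line at under 0.5 CPM in muscle, CYP27C1 and CYP26B1 lie far above it, and CYP20A1 and CYP39A1 lie near it.

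The reads of the set were divided differently in the 2 tissues. All 41 genes together took 641 to 790 CPM in liver, with a median of 737 CPM, and 223 to 266 CPM in muscle, with a median of 244 CPM. The lowest liver sum was that of Control-AI 2, and the other 5 lay at 722 CPM or above. Each gene was counted in 1 role, and CYP2R1 was counted with the vitamin D and retinoid genes, not in families 1 to 3. In liver, the sterol and bile acid genes held 37.9% to 43.3% of the P450 reads, family 4 held 27.1% to 31.2%, and families 1 to 3 held 18.2% to 20.8%. In muscle, the sterol and bile acid genes held 51.2% to 58.2%, and family 4 held 3.23% to 8.69%. These are shares of reads, which also grow with transcript length.

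Of the 13 genes tested between the tissues, 10 were higher in liver and 3 in muscle, beside 81.3% of all 12923 genes tested that differed between liver and muscle, 40.8% higher in liver and 40.5% higher in muscle. A gene that passed the filter only in the tissue where it is high had to differ, as 5 of these did, so neither the count nor the median is a finding about the set. The median log2 fold change, liver minus muscle, was 1.59 over the 13 genes, 1.22 over the 8 past the filter in both tissues and 0.01 over all genes. With the fetus as a block the counts were again 10 and 3, beside 84.7% of all genes. The plot of levels by library shows how far the tissues lay apart for each gene.

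**Figure D2:**
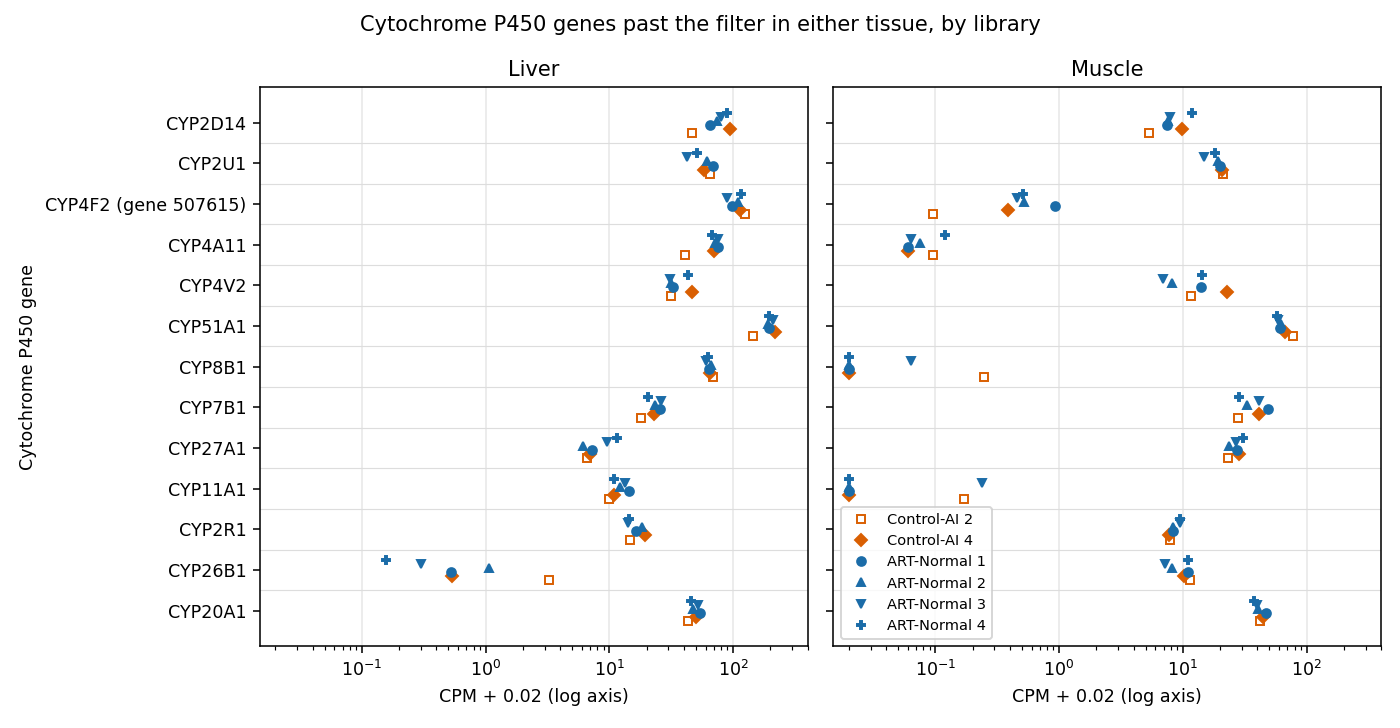
Level of the 13 cytochrome P450 genes past the filter in either tissue, in CPM plus 0.02 on a log axis, in liver (left) and muscle (right). Each point is 1 library, orange for Control-AI (the open square is Control-AI 2) and blue for ART-Normal, with a symbol for each fetus. CYP2D14, CYP4F2, CYP4A11, CYP51A1, CYP8B1, CYP11A1, CYP2U1, CYP2R1 and CYP4V2 have every liver point to the right of their muscle points, CYP26B1, CYP27A1 and CYP7B1 lie further right in muscle, and the points of CYP20A1 overlap between the tissues.

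Families 1 to 3, the enzymes best known for clearing drugs and other foreign compounds, had 16 genes here. CYP2R1, a family 2 gene by name, was counted with the vitamin D genes instead. Of the 16, only CYP2D14 and CYP2U1 passed the filter. CYP2D14, the bovine relative of the human drug oxidase CYP2D6, lies on chromosome 5 from 113087282 to 113094933 on the minus strand (ARS-UCD1.2). It had 46.2 CPM in Control-AI 2 and 95.1 in Control-AI 4 in liver, and 65.0, 74.7, 80.5 and 89.9 CPM in ART-Normal 1 to 4. Its muscle values were 5.28 and 9.79 CPM in the controls and 7.37, 7.61, 7.90 and 11.9 CPM in ART-Normal. The 2 tissues did not overlap, and CYP2D14 was 9.01-fold higher in liver (log2 fold change 3.17 ± 0.21 SE, adjusted p = 3.55e-09).

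CYP2U1, a fatty acid hydroxylase known from brain and thymus, lies on chromosome 6 from 17261762 to 17282966. In liver it measured 64.9 and 57.9 CPM in Control-AI 2 and 4, and 69.4, 61.0, 42.1 and 51.2 CPM in ART-Normal 1 to 4. In muscle it measured 21.3 and 20.8 CPM in the controls and 19.96, 19.1, 14.7 and 18.2 CPM in ART-Normal. ART-Normal 3 was the lowest in both tissues. The liver level was 3.04-fold that of muscle (log2 fold change 1.60 ± 0.12, adjusted p = 2.18e-08).

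The other 14 genes of families 1 to 3 stayed below the filter, with liver means up to 6.08 CPM. The most read among them, CYP2C19, a drug oxidase of the CYP2C cluster on chromosome 26, had 1055 reads over the liver libraries and 5 over the muscle libraries. By library it had 3.98 and 3.91 CPM in the control livers and 10.05, 10.8, 5.01 and 2.74 CPM in ART-Normal 1 to 4. ART-Normal 1, 2 and 3 were thus above both controls and ART-Normal 4 below both. CYP2C18 reached 5.58 CPM in the liver of Control-AI 2 and 0.202 to 0.876 CPM in the other 5. CYP3A4 and CYP1B1 leaned to muscle, with 155 and 191 reads there and 45 and 75 in liver. In a fit without the filter, CYP2C19 was higher in liver (log2 fold change 7.01 ± 0.64, adjusted p = 9.26e-08), and CYP3A4 (-2.30 ± 0.65, adjusted p = 0.00529) and CYP1B1 (-1.69 ± 0.46, adjusted p = 0.00403) were higher in muscle. Near CYP3A4, the CYP3A5 gene 526682 (4.37 ± 0.93, adjusted p = 0.000637) and CYP3A24 (2.08 ± 0.66, adjusted p = 0.0112) were higher in liver. The CYP3A5 gene 282214 was not called (0.68 ± 1.09, adjusted p = 0.586). In this fit, 34.6% of all 18749 genes were called higher in liver and 35.2% higher in muscle, 69.8% in all. CYP1A1 and CYP1A2, the classic targets of the dioxin receptor, had 43 and 6 liver reads and lie 19.0 kb apart on chromosome 21. The CYP2C and CYP3A genes stand in clusters of close copies on chromosomes 26 and 25, with gaps of 3.67 to 18.8 kb between neighbours in the CYP3A cluster, so reads may have been divided among copies and their single levels are uncertain.

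Family 4, the omega-hydroxylases of fatty acids and eicosanoids, had 3 of 6 genes past the filter. The CYP4F2 gene 507615, an omega-hydroxylase of leukotriene B4 and vitamin K side chains, lies on chromosome 7 from 7407725 to 7426885. Its liver levels were 124 and 114 CPM in Control-AI 2 and 4, and 97.8, 109, 88.7 and 117 CPM in ART-Normal 1 to 4. In muscle it had 0.0754 and 0.364 CPM in the controls and 0.911, 0.500, 0.434 and 0.496 CPM in ART-Normal, 62 reads in all. The 2 tissues were 217-fold apart (log2 fold change 7.76 ± 0.24, adjusted p = 1.53e-12). The other CYP4F2 gene, 507016, lies 105 kb away and had 3 reads in liver and none in muscle, and the pair may share reads.

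CYP4A11, a lauric acid hydroxylase and a known target of the fatty acid sensor PPARA, lies on chromosome 3 from 99208559 to 99222626. It had 41.1 CPM in the liver of Control-AI 2, 70.1 in Control-AI 4, and 75.7, 71.3, 75.7 and 67.6 CPM in ART-Normal 1 to 4. Control-AI 2 was thus the lowest, and the other 5 livers lay close together. Muscle held 7 reads in all, and liver was higher by 10.09 ± 0.22 on the log2 scale (adjusted p = 1.4e-13). The neighbouring CYP4A22, 97.0 kb away, went the other way by library, with 3.62 CPM in the liver of Control-AI 2 and 0.043 to 0.305 CPM in the other 5. It was listed at 0 in muscle, so its 68 liver reads were at least 17.9-fold above the level of 3 counts over the muscle group. Of these reads, 50 came from Control-AI 2, and the 18 of the other 5 livers were at least 5.18-fold above that level. Reads may have been divided between these close copies.

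CYP4V2, an omega-hydroxylase of medium-chain fatty acids that is mutated in a corneoretinal dystrophy, lies on chromosome 27 from 16250061 to 16266693. It measured 31.4 and 46.5 CPM in the control livers and 32.4, 31.6, 31.1 and 43.3 CPM in ART-Normal 1 to 4. In muscle it measured 11.5 and 22.7 CPM in the controls and 13.9, 8.16, 6.86 and 14.3 CPM in ART-Normal. Control-AI 4 and ART-Normal 4 were the 2 highest fetuses in both tissues. Liver was 2.84-fold higher (log2 fold change 1.51 ± 0.23, adjusted p = 2.48e-05).

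The sterol and bile acid genes split between the tissues, with CYP51A1 and CYP8B1 higher in liver and CYP7B1 and CYP27A1 higher in muscle. CYP51A1, the lanosterol demethylase of cholesterol synthesis, lies on chromosome 4 from 9459763 to 9477007. Its liver levels were 144 and 216 CPM in Control-AI 2 and 4, and 195, 190, 211 and 194 CPM in ART-Normal 1 to 4. Its muscle levels were 77.5 and 67.0 CPM in the controls and 61.3, 61.9, 59.2 and 57.3 CPM in ART-Normal. Control-AI 2 was the lowest liver and the highest muscle, yet every liver library lay above every muscle library, and the difference was 3.00-fold (log2 fold change 1.59 ± 0.11, adjusted p = 5.36e-09).

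Bile acids can be made by a classic route that begins with CYP7A1 and an acidic route that begins with CYP27A1 and CYP7B1, and CYP8B1 sets the share of cholic acid. CYP7A1 had 7 reads over all liver libraries and 1 over all muscle libraries. CYP8B1, on chromosome 22 from 14946434 to 14949705, had 69.0 and 65.4 CPM in the control livers and 63.9, 65.6, 60.3 and 62.1 CPM in ART-Normal 1 to 4. It was the steadiest P450 gene past the filter in liver, with an SD over the 6 fetuses of 4.71% of the mean. Muscle held 4 reads, 3 in Control-AI 2 and 1 in ART-Normal 3, and liver was higher by 10.74 ± 0.32 on the log2 scale (adjusted p = 1.27e-12). Without Control-AI 2, whose muscle library also had the highest hepatocyte marker sum, this difference was 12.14. The part of those markers in the muscle reads was not tested.

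CYP27A1, the mitochondrial sterol 27-hydroxylase, lies on chromosome 2 from 106740008 to 106782299. It measured 6.59 and 6.96 CPM in the control livers and 7.19, 6.14, 9.46 and 11.6 CPM in ART-Normal 1 to 4. In muscle it had 23.3 and 28.2 CPM in the controls and 27.5, 23.6, 26.8 and 30.4 CPM in ART-Normal. The highest liver value lay below the lowest muscle value, and muscle was 3.35-fold higher (log2 fold change, liver minus muscle, -1.74 ± 0.15, adjusted p = 9.76e-08).

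CYP7B1, the oxysterol 7-alpha-hydroxylase, lies on chromosome 14 from 29262310 to 29460144. Its liver levels were 18.0 and 22.9 CPM in the controls and 25.6, 23.2, 26.2 and 20.5 CPM in ART-Normal 1 to 4. Its muscle levels were 27.7 and 41.6 CPM in the controls and 49.1, 33.0, 41.6 and 28.6 CPM in ART-Normal. Control-AI 2 was the lowest fetus in each tissue, and no liver reached the lowest muscle. The muscle level was 1.63-fold higher (log2 fold change, liver minus muscle, -0.70 ± 0.15, adjusted p = 0.000524).

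The other sterol genes, CYP39A1 and CYP46A1, stayed below the filter. CYP39A1, an oxysterol hydroxylase, had 3.59 to 5.25 CPM in liver. In muscle it had 9.87 CPM in Control-AI 2, 4.53 in Control-AI 4, and 4.75, 3.00, 3.60 and 3.52 CPM in ART-Normal 1 to 4. The tissues did not differ past the threshold in the fit without the filter (log2 fold change -0.09 ± 0.25, adjusted p = 0.76). SLC25A27 on the opposite strand covers 12.4% of the span of CYP39A1 and had 29.1 to 34.9 CPM in muscle, and since the handling of strand in the counting is not stated, reads of the 2 genes cannot be told apart there. CYP46A1, the cholesterol 24-hydroxylase of brain, had 62 reads in liver and 136 in muscle.

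Of the 4 steroid hormone genes, CYP11A1 alone passed the filter, and in liver only. CYP11A1 is the mitochondrial side-chain cleavage enzyme that turns cholesterol into pregnenolone, and lies on chromosome 21 from 34328585 to 34342887. It had 9.997 and 10.9 CPM in the control livers and 14.5, 12.2, 13.3 and 10.8 CPM in ART-Normal 1 to 4, 1901 reads in all. Muscle held 7 reads, 2 in Control-AI 2 and 5 in ART-Normal 3, and liver was higher by 7.60 ± 0.49 on the log2 scale (adjusted p = 2.78e-09). Without ART-Normal 3 the difference was 8.83. The later enzymes of adrenal steroid synthesis, CYP17A1 and CYP11B1, had no read in liver, and aromatase, CYP19A1, had 35. CYP17A1 leaned to muscle, where its 28 reads were at least 11.8-fold above the level of 3 counts over the liver group. CYP19A1 had no read in muscle, and its liver reads were at least 9.19-fold above the level of 3 counts there. Of the adrenal cortex markers, HSD3B1 had 3.38 to 12.5 CPM and NR5A1 2.76 to 6.60 CPM in liver, while MC2R, STAR and MRAP stayed at or below 1.08, 0.942 and 0.145 CPM. All 5 together summed to 7.03 to 19.8 CPM in the ART-Normal livers and 14.1 and 13.1 CPM in Control-AI 2 and 4, and their part in the level of CYP11A1 was not tested.

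The vitamin D and retinoid genes ran from liver-leaning to muscle-leaning. CYP2R1, the main vitamin D 25-hydroxylase, on chromosome 15 from 37890068 to 37915285, had 14.8 and 19.2 CPM in the control livers and 16.5, 18.4, 14.2 and 14.5 CPM in ART-Normal 1 to 4. In muscle it had 7.84 and 7.68 CPM in the controls and 8.32, 8.38, 9.42 and 9.52 CPM in ART-Normal. All livers lay above all muscles, and the difference was 1.91-fold (log2 fold change 0.93 ± 0.12, adjusted p = 7.26e-06). CYP24A1, which inactivates vitamin D, had 124 reads in liver and none in muscle, at least 32.6-fold above the level of 3 counts over the muscle group. CYP27B1, which makes the active hormone, had 55 reads in liver and 46 in muscle.

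CYP26B1, which degrades retinoic acid, lies on chromosome 11 from 12371161 to 12396520. It had 11.5 and 10.2 CPM in the control muscles and 10.9, 8.16, 7.16 and 10.9 CPM in ART-Normal 1 to 4. In liver it had 3.26 CPM in Control-AI 2, 0.516 in Control-AI 4, and 0.507, 1.05, 0.283 and 0.135 CPM in ART-Normal. The tissues did not overlap, and muscle was 12.1-fold higher (log2 fold change, liver minus muscle, -3.60 ± 0.49, adjusted p = 9.48e-06), or -4.18 on the log2 scale without Control-AI 2. Its relatives CYP26A1 and CYP26C1 had 16 and 5 reads in liver and 9 and 7 in muscle. CYP27C1, a retinol desaturase, had 3.92 to 6.89 CPM in muscle with 628 reads and only 5 reads in liver. It just missed the filter, and the fit without it put CYP27C1 higher in muscle by 7.12 ± 0.53 on the log2 scale (adjusted p = 9.07e-09). CYP27C1 and CYP26B1 are thus the 2 retinoid genes read mostly in muscle.

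CYP20A1, an orphan P450 with no known substrate, lies on chromosome 2 from 91483594 to 91527760. It measured 43.2 and 50.5 CPM in the control livers and 54.2, 47.4, 52.3 and 45.3 CPM in ART-Normal 1 to 4. In muscle it measured 41.9 and 44.2 CPM in the controls and 46.6, 40.1, 39.7 and 37.4 CPM in ART-Normal. The tissues overlapped, and liver was 1.17-fold higher (log2 fold change 0.23 ± 0.08, adjusted p = 0.0233). This call was lost without ART-Normal 2 (adjusted p = 0.0608), without ART-Normal 3 (adjusted p = 0.12), in the Control-AI fetuses only (adjusted p = 0.588), with upper quartile normalization (adjusted p = 0.0729) and with library size alone (adjusted p = 0.535), and held with the fetus as a block (adjusted p = 0.00809).

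Levels of different genes were compared per kilobase (kb) of gene span, which includes introns and so understates genes with long introns. In liver, CYP8B1 led with 19.7 ± 0.927 CPM per kb (SD, n = 6), on a span of 3.27 kb, and every library lay above those of the other genes. CYP51A1 followed at 11.1 ± 1.48 and CYP2D14 at 9.83 ± 2.33 CPM per kb, and these neighbours overlapped. CYP4F2 at 5.65 ± 0.672 and CYP4A11 at 4.76 ± 0.926 CPM per kb also overlapped. In CPM not divided by span, CYP51A1 led in liver with a mean of 192 CPM, and CYP8B1 ranked 5 with 64.4 CPM. The first place of CYP8B1 thus depended on its short span. In muscle, CYP51A1 led with 3.71 ± 0.426 CPM per kb, above every library of the other genes, and CYP2D14, CYP20A1, CYP2U1 and CYP4V2 followed at 1.09 to 0.777 CPM per kb with overlapping values. CYP7B1 was the last of the genes past the filter in both tissues, on a span of 198 kb.

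**Figure D3:**
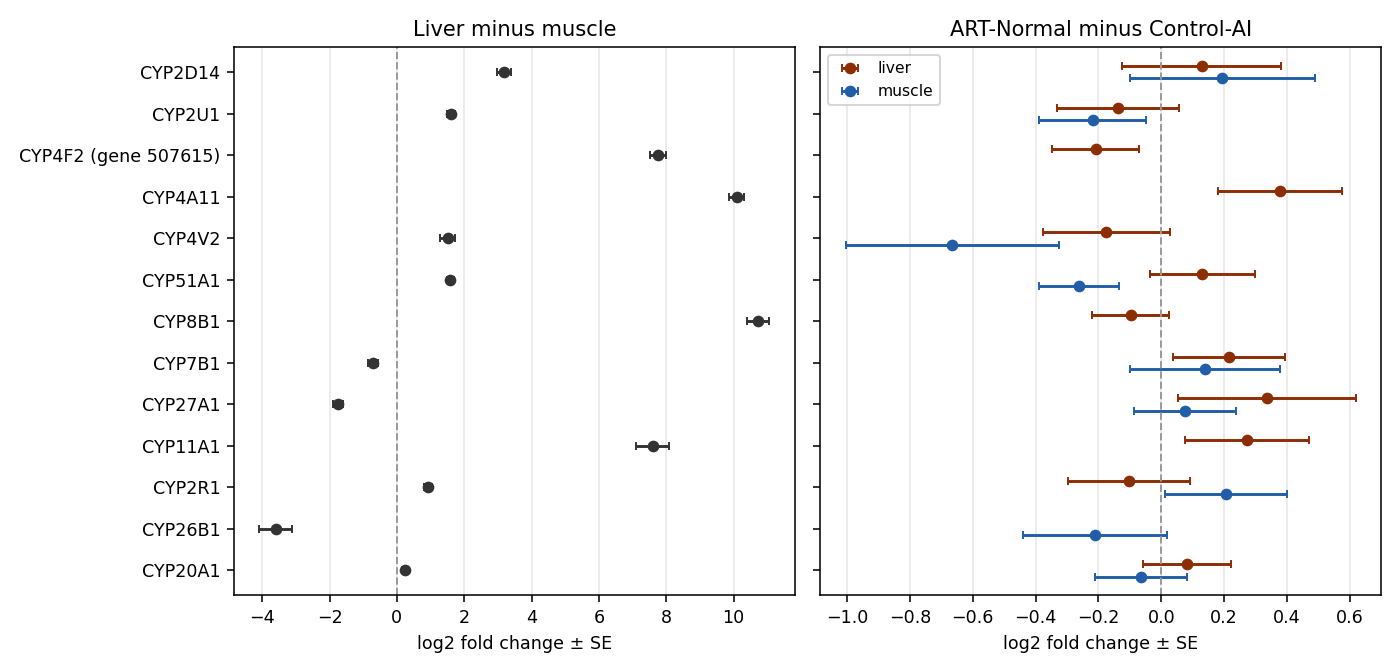
Log2 fold changes with standard errors from edgeR for the 13 cytochrome P450 genes: liver minus muscle over 12 libraries (left), and ART-Normal minus Control-AI in liver and in muscle (right, on its own scale). On the left the values run from -3.60 for CYP26B1 to 10.74 for CYP8B1, and on the right all lie between -0.67 and 0.38, with none past the threshold.

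The comparison of ART-Normal with Control-AI asked whether in vitro production left a mark on these genes in fetuses of normal weight. No P450 gene passed the threshold in either tissue. In liver, 0 of the 12 genes tested with edgeR's quasi-likelihood test were called and 0 had an unadjusted p under 0.05, beside 0% of all 11304 genes called and 8.39% with an unadjusted p under 0.05. In muscle, 0 of 9 were called and 0 had an unadjusted p under 0.05, beside 0.00855% of 11695 genes called and 9.19% unadjusted. The likelihood ratio test and DESeq2 also called 0 of these genes in both tissues, beside 89 and 56 of all 11304 genes in liver and 120 and 106 of 11695 in muscle. DESeq2 gave 0 liver genes and 1 muscle gene of the set an unadjusted p under 0.05, and the likelihood ratio test gave 0 in both. The median log2 fold change was 0.11 over the 12 liver genes and 0.01 over all genes, and -0.07 over the 9 muscle genes and 0.00 over all genes.

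The fitted changes ran from -0.21 to 0.38 in liver and from -0.67 to 0.21 in muscle on the log2 scale. In liver the genes with the largest positive values were CYP4A11 (0.38 ± 0.20, adjusted p = 0.59), CYP27A1 (0.34 ± 0.28, adjusted p = 0.677) and CYP11A1 (0.27 ± 0.20, adjusted p = 0.645). The largest negative values were those of CYP4F2 (-0.21 ± 0.14, adjusted p = 0.624), CYP4V2 (-0.18 ± 0.20, adjusted p = 0.759) and CYP2U1 (-0.14 ± 0.19, adjusted p = 0.809). In none of the 12 did the 4 ART-Normal livers lie wholly above or below the 2 controls, beside 18.4% of all genes tested. The value of CYP4A11 rested on Control-AI 2: it was 0.06 without that animal and 0.81 (adjusted p = 0.0211) without Control-AI 4, a fit that called 830 of 11602 genes.

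In muscle, the largest positive values were CYP2R1 (0.21 ± 0.19, adjusted p = 0.798), CYP2D14 (0.19 ± 0.29, adjusted p = 0.885) and CYP7B1 (0.14 ± 0.24, adjusted p = 0.902). The largest negative values were CYP4V2 (-0.67 ± 0.34, adjusted p = 0.598), CYP51A1 (-0.26 ± 0.13, adjusted p = 0.574) and CYP2U1 (-0.22 ± 0.17, adjusted p = 0.749). The groups did not overlap for 3 of the 9 genes, with CYP2R1 higher and CYP51A1 and CYP2U1 lower in every ART-Normal muscle, beside 16% of all genes tested, 8.15% higher and 7.89% lower. The value of CYP4V2 moved with the controls: dropping Control-AI 2 gave -1.08, and dropping Control-AI 4 gave -0.07. Control-AI 4 had 22.7 CPM. CYP2D14 and CYP7B1 turned negative without Control-AI 2, at -0.18 and -0.13. CYP39A1, which lay below the filter, was called without Control-AI 4 (-1.38 ± 0.33, adjusted p = 0.0122), where only Control-AI 2 remained and 1327 of 12215 genes were called.

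The interaction of tissue and conception group called 0 of 13 P450 genes with edgeR's quasi-likelihood test, beside 0% of 12923 genes. DESeq2 and the likelihood ratio test also called 0 of the 13, beside 37 and 98 of all genes. One gene of the set, CYP4F2, had an unadjusted p under 0.05 (-1.39 ± 0.51 on the log2 scale, adjusted p = 0.805), beside 5.55% of all genes, and DESeq2 and the likelihood ratio test also gave 1. With the fetus as a block, 0 of the 13 and 0 of all genes were called. The muscle values of CYP4F2 rest on 62 reads, and leaving out Control-AI 4 took its interaction to -3.17, and leaving out Control-AI 2 took it to -0.81. With 1 ART-Normal fetus left out, the number of the set with an unadjusted p under 0.05 in edgeR's test went both ways. It was 0 without ART-Normal 1, 2 without ART-Normal 2, 2 without ART-Normal 3 and 1 without ART-Normal 4.

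The spread between animals differed from gene to gene. Over the 6 fetuses, the SD ran from 4.71% of the mean (CYP8B1) to 26.3% (CYP27A1) for the 12 genes in liver and from 7.99% (CYP20A1) to 43.8% (CYP4V2) for the 9 genes in muscle. Counting error alone at these depths would be 1.40% to 6.90% in liver and 2.76% to 7.53% in muscle. Control-AI 2 lay outside the range of the other 5 for many genes: of the 16 P450 genes with a liver mean of at least 1 CPM, it was above all others for 3 (CYP4F2, CYP8B1 and CYP2C18) and below for 7 (CYP51A1, CYP2D14, CYP4A11, CYP20A1, CYP7B1, CYP11A1 and CYP2J2), beside 26.1% above and 24.8% below over all genes. In muscle it was above for 6 of 14 (CYP51A1, CYP2U1, CYP26B1, CYP39A1, CYP1B1 and CYP3A4) and below for 3 (CYP7B1, CYP27A1 and CYP2D14), beside 27.5% and 24.1%. Of the hepatocyte markers, its liver had the most ALB, AFP, SERPINA1 and FGB mRNA of the 6 livers, but not the most APOB, APOA1 or TTR mRNA. Neither the markers nor the P450 genes thus moved in 1 direction in this liver.

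Liver and muscle of the same fetus were compared for the 8 genes past the filter in both tissues. Over the 6 fetuses, the log2 levels of CYP2D14 in liver and muscle correlated with Pearson's r = 0.917 (exact permutation p = 0.0111, adjusted p = 0.0704) and Spearman's rho = 0.943 (exact permutation p = 0.0167, adjusted p = 0.0667). CYP4V2 had r = 0.807 (exact permutation p = 0.0625, adjusted p = 0.125) and rho = 0.943 (exact permutation p = 0.0167, adjusted p = 0.0667). Over these 8 relations no adjusted p was at most 0.05. CYP2U1 had r = 0.888 (rho = 0.714, exact permutation p = 0.0264 and 0.136, adjusted 0.0704 and 0.181) and CYP7B1 r = 0.870 (rho = 0.714, exact permutation p = 0.025 and 0.136, adjusted 0.0704 and 0.181). CYP51A1 and CYP2R1 had negative values, r = -0.739 and -0.653 (exact permutation p = 0.129 and 0.185, adjusted 0.172 and 0.211; rho = -0.257 and -0.714, exact permutation p = 0.658 and 0.136, adjusted 0.658 and 0.181). CYP27A1 and CYP20A1 had r = 0.748 and 0.546 (exact permutation p = 0.104 and 0.265, adjusted 0.167 and 0.265; rho = 0.714 and 0.429, exact permutation p = 0.136 and 0.419, adjusted 0.181 and 0.479). Without the 2 fetuses farthest from the median liver level, r was 0.835 for CYP2D14, 0.764 for CYP4V2, 0.747 for CYP2U1, 0.888 for CYP7B1, 0.839 for CYP27A1, 0.596 for CYP20A1, -0.314 for CYP51A1 and -0.537 for CYP2R1. The 2 control animals are too few for a value within that group.

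**Figure D4:**
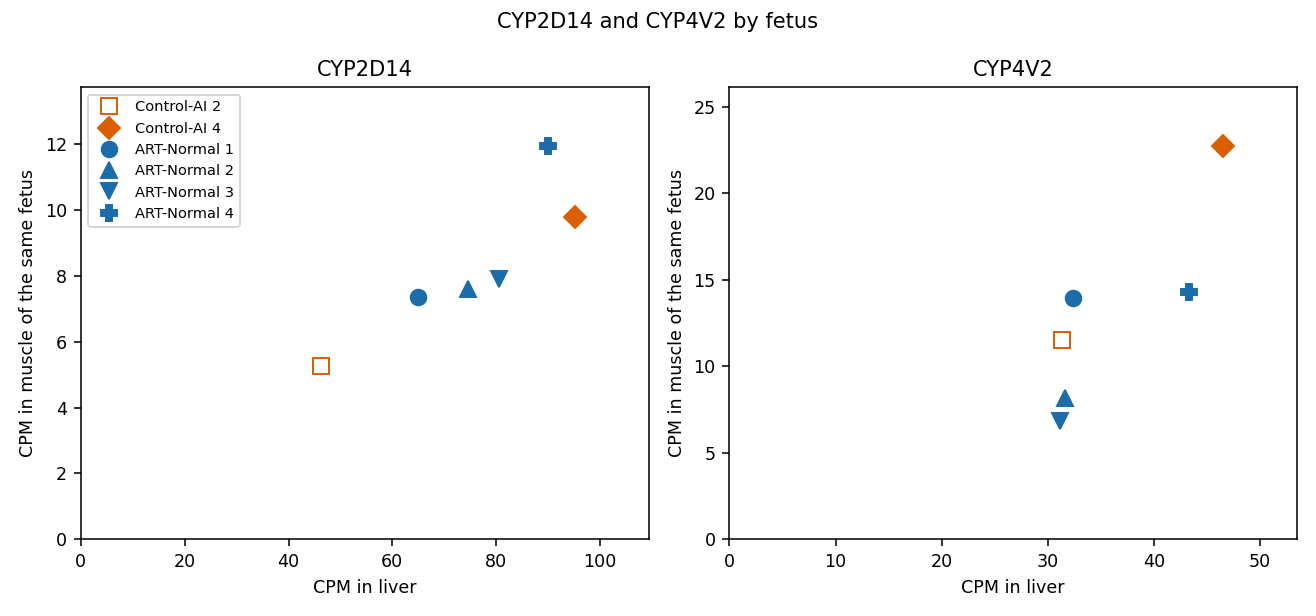
Level of CYP2D14 (left) and CYP4V2 (right) in liver (x axis, CPM) and in muscle of the same fetus (y axis, CPM), with 1 point per fetus, orange for Control-AI and blue for ART-Normal. For CYP2D14, Control-AI 2 is lowest in both tissues at 46.2 and 5.28 CPM, and for both genes Control-AI 4 and ART-Normal 4 are the 2 highest in both tissues.

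The genes that serve the P450 enzymes were read from 5 lists, which hold no P450 gene. Of the electron donors, 7 of 10 tested were higher in liver, 1 was lower and 2 were not called. Over all genes tested, 81.3% differed, 40.8% higher in liver and 40.5% higher in muscle. The largest differences were those of CYB5A, a cytochrome b5 that boosts several P450 reactions (log2 fold change 3.93 ± 0.13, adjusted p = 3.94e-12), and FDX1, the mitochondrial ferredoxin (1.79 ± 0.13, adjusted p = 9.12e-09). POR, the reductase of all microsomal P450 enzymes, had a median of 93.4 CPM in liver (64.5 to 107) and 28.9 CPM in muscle (26.5 to 37.5), a log2 fold change of 1.59 ± 0.13 (adjusted p = 2.85e-08). FDXR, which reduces ferredoxin, did not pass the threshold (-0.24 ± 0.11, adjusted p = 0.0646), and CYB5R1 was lower in liver (-1.11 ± 0.11, adjusted p = 3.18e-07).

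Heme synthesis and breakdown genes were higher in liver in 9 of 10 cases, beside 40.8% of all genes tested. Among them were CPOX (5.11 ± 0.16, adjusted p = 2.1e-12) and FECH (4.42 ± 0.12, adjusted p = 4.9e-13). ALAS1, the rate-limiting enzyme of heme synthesis outside red cells, had a smaller difference (0.87 ± 0.14, adjusted p = 4.37e-05). The erythroid markers summed to 4139 to 4644 CPM in liver and 13.5 to 74.7 CPM in muscle, and their part in the heme genes was not tested.

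Nuclear receptors and sensors that control P450 genes were higher in liver in 9 of 11 cases and lower in 2, beside 40.8% and 40.5% of all genes tested. Only 6 of the 11 passed the filter in muscle. A gene that passed only in liver had to differ, so this count is not a finding about the list. Those lower in liver were AHR, the dioxin receptor (-0.60 ± 0.15, adjusted p = 0.00258), and its partner ARNT (-0.27 ± 0.09, adjusted p = 0.0182). HNF4A, a master regulator of hepatocytes, had a median of 263 CPM in liver and 0.185 CPM in muscle, and NR1H4, the bile acid receptor FXR, had 85.7 and 0.0625 CPM. The drug sensors NR1I2 (PXR) and NR1I3 (CAR) had medians of 17.4 and 7.15 CPM in liver, and their known targets CYP3A4 and CYP2B6 had liver means of 0.274 and 0.678 CPM. Of the 133 liver reads of CYP2B6, 102 came from ART-Normal 2, and its mean was 0.36 CPM without that library.

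Of the bile acid genes outside the P450 set, 10 of 13 were higher in liver and 2 lower (FGFR4 and BAAT), beside 40.8% and 40.5% of all genes tested. In liver 12 of them passed the filter and in muscle 6, so this count is not a finding about the list either. KLB, the coreceptor through which FGF19 represses CYP7A1, had a median of 321 CPM in liver and 0.279 CPM in muscle. AKR1D1, the steroid 5-beta-reductase, had 183 and 0 CPM, ABCB11, the bile salt export pump, 148 and 0 CPM, and SLC10A1, the bile salt importer, 165 and 0.287 CPM. KLB, AKR1D1 and both transporters were thus read in liver, where CYP7A1 had 7 reads. All of them had their highest muscle value in Control-AI 2, at 9.50 CPM for SLC10A1, 1.21 for KLB, 0.377 for ABCB11 and 0.0754 for AKR1D1. That muscle library also had the highest hepatocyte marker sum, and the part of those markers in these values was not tested. Of the conjugating and other detoxifying enzymes, 14 of 16 were higher in liver and 2 lower (the GSTM1 gene 327709 and FMO5), beside the same shares of all genes. Only 10 of the 16 passed the filter in muscle, so the same limit holds for this count. SULT1E1, the estrogen sulfotransferase, had a median of 227 CPM in liver and 0 in muscle.

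None of these lists had a gene past the threshold between ART-Normal and Control-AI in either tissue. In liver, 0 of 10 electron donors, 0 of 10 heme genes, 1 of 11 receptors, 3 of 12 bile acid genes and 3 of 16 detoxifying genes had an unadjusted p under 0.05, beside 8.39% of all genes. In muscle none of the genes of the 5 lists did, beside 9.19%. The 7 liver genes were NR1H3, AMACR, SLC10A1, KLB, GSTM1, GSTM3 and GSTA2, named here after their values were seen, and the smallest adjusted p among them was that of GSTA2 (0.90 ± 0.14 on the log2 scale, adjusted p = 0.276). Among the bile acid genes, SCP2 had 0.37 ± 0.19, and among the electron donors, CYB5A had 0.18 ± 0.17.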

How the data were processed

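Liver and skeletal muscle counts of 6 fetuses were used; kidney was not analysed here. The values deposited by the authors are raw read counts per gene on ARS-UCD1.2, which were not normalized. The submitters' processing notes name FastQC 0.11.7, HISAT2 2.1.0, Cufflinks, SAMtools, featureCounts and edgeR 3.24.3. Per the labels, mRNA was enriched with oligo(dT) and sequenced as stranded, paired 150 bp reads; whether the counting used strand is not given in the sources used here. Every listed length equals the whole gene span. A further 14 count columns, 7 per table, matched no label and were left out. The authors' comparison tables (log2 fold changes, p-values and FDR) were not used. The paper does not list ART-Normal 4, and takes its control RNA-seq from an earlier study.

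CPM after TMM over 12 libraries was computed with edgeR 4.0.16 (R 4.3.3), library size being the total count, and DESeq2 1.42.0 was an alternative. Tests were two-sided, over genes with at least 5 CPM in every library of a group, and adjusted over all of them (Benjamini-Hochberg, threshold 0.05). Standard errors come from the fitted change and the F value. Tissue was tested over 12 libraries with conception group as covariate, and conception group over 6 libraries within a tissue. Liver and muscle of a fetus are paired by animal: their deviations from the group means correlated over 12923 genes at r = 0.544 in Control-AI and, for ART-Normal 1 to 4, at 0.320, 0.067, 0.089 and 0.449. No 2 libraries of a group agreed within sampling noise. The procedures were also run on simulated data with independent libraries and no fetus effect. That run does not bear on the pairing by animal or on the distance of Control-AI 2 from the other fetuses. Plots were made with Python 3.11.15 and Matplotlib 3.10.9.

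The P450 set, the 5 pathway lists and the marker lists were chosen with earlier results of these data known. Values per library are given for the 10 genes with the highest mean in liver and the 8 in muscle, those past the threshold between conception groups (none), the 3 with the largest change in each direction per tissue, and sterol, steroid, vitamin D and retinoid genes past the filter; genes below the filter were named after their values were seen. Pathway lists are given by counts with up to 4 genes of largest change, or of highest CPM (without regard to length), and some genes of these lists are not reported here; FDXR, ALAS1 and the genes lower in liver were added after their values were seen. The macrophage, cholangiocyte, endothelial, fibroblast and adipocyte markers summed in liver to 179 to 249, 24.2 to 44.6, 523 to 620, 546 to 1171 and 2.26 to 3.32 CPM. No sequences of these genes were used here.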

Additional observations from a re-analysis of the deposited data

Results flagged for a closer look

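Among the 21 sets of 4 ART-Normal values for genes past the filter (12 in liver, 9 in muscle), 2 held a value set apart from the other 3, judged by the gap to the nearest value as a share of the range against Dixon's 95% limit, and chance gives about 1 in 20. ART-Normal 4 was the high one in both: CYP4V2 in liver, at 43.3 CPM with 31.1 to 32.4 CPM in ART-Normal 1 to 3 (gap share 0.897), and CYP2D14 in muscle, at 11.9 CPM with 7.37 to 7.90 CPM in ART-Normal 1 to 3 (gap share 0.883). ART-Normal 4 is the fetus that the paper does not list.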

How the results depend on the processing

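The 10 and 3 calls between the tissues became 20 and 8 of 39 genes without the filter, and 6 higher in liver of 9 genes with at least 10 counts in every library, a setting that drops genes silent in muscle. Leaving out 1 fetus at a time gave 9 to 10 and 3 to 4. Upper quartile normalization and library size alone gave 9 and 3, and the fetus as a replicate block gave 10 and 3. Between conception groups, leaving out 1 fetus gave 0 to 1 calls higher in ART-Normal in liver (CYP4A11, without Control-AI 4) and 0 to 1 lower in muscle (CYP39A1, without Control-AI 4), with the spread then assumed equal for the lone control. All other settings gave 0 there and in the interaction: RLE, upper quartile, library size alone, the likelihood ratio test, DESeq2, no filter, 10 counts, a replicate block and both tissues in 1 fit. In the single-tissue fits the replicate block joins different animals that share only a number, 2 or 4, and leaves 1 residual degree of freedom; it called 6 genes in liver and 90 in muscle, with none of the P450 set. The Control-AI fetuses alone gave 8 and 2, where CYP4V2 (1.17, adjusted p = 0.062), CYP7B1 (-0.77, adjusted p = 0.0696) and CYP20A1 (0.11, adjusted p = 0.588) missed the threshold. Signs turned for CYP4F2 and CYP2U1 in liver with library size alone (0.0086 and 0.078), which shifts the median of all liver genes by 0.21; for CYP4V2 in liver without Control-AI 4 (0.14, range -0.42 to 0.14 over the fetuses left out); for CYP7B1 in muscle without ART-Normal 1 (-0.012), without Control-AI 2 (-0.13, range -0.13 to 0.48) and with the replicate block (-0.14); and for CYP2D14 in muscle without Control-AI 2 (-0.18, range -0.18 to 0.74). None of these passed the threshold, and the cause was not tested. Levels per kb of gene span, CYP4A22 without Control-AI 2 and CYP2B6 without ART-Normal 2 were added after the data were seen; levels per kb of exon or coding length were not run, since no exon lengths were used here. With 2 controls and 4 ART-Normal fetuses, even a change several times its standard error could stay uncalled. GSTA2 in liver, at 0.90 ± 0.14 on the log2 scale, had an adjusted p of 0.276 in edgeR's quasi-likelihood test. The lack of calls between conception groups therefore does not show that these genes were unchanged.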
